A study of Arabidopsis thaliana with 18 samples.

Results

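Loss of the trihelix transcription factor DF1 alone was examined in root hair cells, by comparing 3 arrays of the df1 single mutant with 3 arrays of wild type (WT). These are 6 of the 18 arrays of the series, chosen by their genotype labels, and all 22746 probe sets that are not Affymetrix controls were compared. The df1 plants carried the T-DNA insertion allele df1-1 and the WT plants were Columbia-0. All values came from roots of seedlings 5 days old that were digested to protoplasts, after which fluorescent cells were sorted. Both genotypes expressed pEXPA7:NLS-GFP, a nuclear green fluorescent protein under the promoter of the root hair expansin gene EXPA7, as did the single mutant gtl1 (allele gtl1-1) and the double mutant gtl1df1 (gtl1-1 df1-1), which are used below as references from the same series. In DF1ox, the line with extra DF1, the same promoter drove a fusion of DF1 with that protein, by whose fluorescence cells were sorted. Each genotype had 3 arrays. Each mutant is represented by 1 allele. The study's methods describe the RNA samples as biological replicates, in a passage on WT, gtl1df1 and the lines with extra GTL1 or DF1. That passage does not name df1 or gtl1, and the labels do not say what separates the replicates. The p-values therefore measure the spread between samples within a genotype, estimated over all 18 arrays of the series. In sorted bulk cells, fewer cells of a type and less RNA per cell cannot be told apart.

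Root hairs are tubular outgrowths of root epidermal cells that grow at the tip while new membrane, cell wall and cytoplasm are delivered there. DF1 and the related GTL1 are trihelix factors, a plant family of DNA-binding proteins with GT factors as its founders, and both are known as repressors that bring root hair growth to an end. Because the related factors can act in the same cells, the loss of DF1 was also read in plants that lacked GTL1, by gtl1df1 against gtl1.

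Signals are on the log2 scale, so that 1 unit is a 2-fold difference, and a change is given as df1 minus WT with the standard error (SE) of the fit. A probe set was called when its p-value from limma, adjusted by the Benjamini-Hochberg method over all probe sets, was under 0.05. The lowest signal in the table was 2.22, and where all 3 arrays of the dimmer genotype lay within 1 unit of it only a lower limit of the change could be read, written "at least". Genes with a symbol in the annotation are given by symbol and the others by locus.

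The arrays differed in more than genotype. The added bacterial control transcript BioB read 7.86, 7.99 and 8.13 in df1 and 2.63, 2.56 and 2.49 in WT, while it averaged 7.57 in gtl1 and 7.19 in gtl1df1. DF1ox averaged 2.87 and GTL1ox, the line with extra GTL1, 2.65. By this control the df1, gtl1 and gtl1df1 arrays form a set with high BioB, apart from a set with low BioB that holds WT, for which the labels give no name. In df1 against WT the BioB set and the genotype cannot be told apart. The 3′ minus 5′ difference of control genes is a sign of RNA quality. For GAPDH it was 2.02, 2.31 and 2.54 in df1 and 1.71, 1.36 and 1.68 in WT, without overlap, and averaged 1.88 in gtl1. For actin it averaged 6.52 in df1 and 6.82 in WT and for ubiquitin 1.33 in df1 and 1.37 in WT. The mean of all 3 genes was 3.32 to 3.42 in df1 and 2.99 to 3.56 in WT, where the groups overlapped. In a second series of control probe sets for these genes the mean was 0.97, 1.01 and 1.17 in df1 and 0.84, 0.55 and 0.74 in WT. There the groups did not overlap, and the mean was 0.76 in gtl1 and 0.73 in gtl1df1. Across probe sets, df1 arrays correlated with one another at 0.996 to 0.997 and WT arrays at 0.987 to 0.994, and WT replicate 3 had the lowest correlation with the other WT arrays. Their part in the differences below was not tested.

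The insertion lowered its target. DF1 (AT1G76880) was at 3.74, 3.30 and 3.30 in df1 and at 7.23, 7.26 and 7.57 in WT. The signal fell by 3.91 ± 0.32 (adjusted p = 3.93e-05), a 15-fold difference. In the gtl1 background DF1 was between 3.41 and 5.03 in gtl1df1 and between 8.38 and 8.83 in gtl1, a change of -4.42 (adjusted p = 7.87e-06). GT2, a trihelix factor at the adjacent locus AT1G76890, was at 9.37, 9.49 and 9.26 in df1 and at 8.88, 9.13 and 8.69 in WT, which did not overlap but did not pass the test (0.48 ± 0.20, adjusted p = 0.131). EXPA7, whose promoter drove the sorting marker, was at 13.18, 13.15 and 13.00 in df1 and 13.14, 13.14 and 13.10 in WT. Its groups overlapped and its change was -0.02 ± 0.06 (adjusted p = 1).

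Of 22746 probe sets, 3995 were called between df1 and WT (17.6%), of which 1716 were higher (7.54% of all tested) and 2279 lower (10%) in df1. The median change of the calls was 0.70 for the higher and -0.72 for the lower ones, and 516 (2.27%) and 748 (3.29%) were beyond 2-fold. Of the higher calls 1570 and of the lower calls 2185 had no overlap between the df1 and WT arrays. In all probe sets, called or not, the df1 arrays lay above all WT arrays in 10.9% and below them in 14.7%. A total of 2236 calls were made in each of the 6 fits that left out 1 of these arrays. Without WT replicate 3, 2903 probe sets were called, and 1034 higher and 1709 lower calls were kept. WT replicate 3 was the WT array farthest from df1 in 999 of the higher and 1108 of the lower calls. With only the 6 df1 and WT arrays in the fit, 333 were called, and after quantile normalization of the signals the calls split into 2083 higher and 1991 lower, 51.1% higher against 43.0% as deposited.

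**Figure D1:**
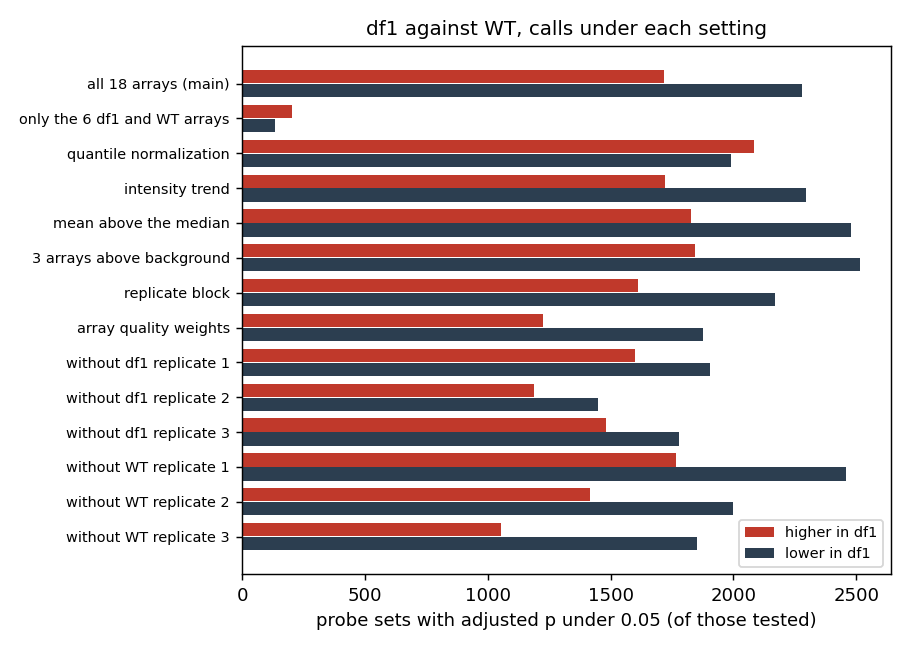
Number of probe sets (horizontal axis) called higher (red) and lower (dark) in df1 than in WT under each setting named on the vertical axis. The fit of only the 6 df1 and WT arrays gave 200 higher and 133 lower calls, and without WT replicate 3 there were 1053 higher and 1850 lower.

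Some of the genes that rose are known from drought, salt or abscisic acid responses. They were picked from the larger rises after the values were seen, apart from AT5G61590, which the naming rule took, and members of the abscisic acid list. LTI30, a dehydrin that accumulates under cold and abscisic acid, was at 13.26, 13.41 and 12.55 in df1 and at 11.58, 10.88 and 10.41 in WT, a rise of 2.11 ± 0.43 (adjusted p = 0.00447). Late embryogenesis abundant protein gene LEA4-5, a protectant of drying cells, was at 9.35, 9.74 and 9.22 in df1 and 7.71, 7.24 and 6.99 in WT, and rose by 2.12 ± 0.34 (adjusted p = 0.00134). In both genes every df1 array was above every WT array. AT5G61590, recorded as DEWAX, a repressor of wax synthesis, rose by 2.33 ± 0.26 (adjusted p = 0.000133). The calmodulin-like gene CML37 rose by 2.08 ± 0.38, the U-box ubiquitin ligase gene PUB19, which acts in drought responses, by 1.50 ± 0.27, the aldehyde dehydrogenase gene ALDH7B4 by 1.44 ± 0.25 and the salt-induced gene SIS by 1.29 ± 0.19 (adjusted p between 0.000808 and 0.00263).

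Not all stress genes were higher. The drought-induced gene DI21 was at 5.58, 5.06 and 5.63 in df1 and between 6.78 and 8.41 in WT and fell by 1.98 ± 0.35 (adjusted p = 0.00217). The dehydrin gene COR47 was at 14.06, 14.25 and 14.18 in df1 and at 14.15, 13.38 and 13.56 in WT, so that 1 WT array reached the df1 range (0.47 ± 0.24, adjusted p = 0.242). STZ, a zinc finger factor of salt and wound responses, had a change of 0.61 ± 0.38 (adjusted p = 0.332). Over the list of abscisic acid and desiccation genes, 2 of 5 measured members were higher in df1 and 0 lower, with a median of 0.47 against 0.00 over all probe sets. Counts of called members here and below stand against 7.54% called higher and 10% called lower over all probe sets, and lists of few members give no more than a count.

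Within the BioB set of the mutants, LEA4-5 was also higher in df1 than in gtl1, where it was at 7.55, 6.37 and 7.22 (2.39, adjusted p = 0.00157), as were PUB19 (1.57, adjusted p = 0.00431), SIS (1.52, adjusted p = 0.000672) and AT5G61590 (1.86, adjusted p = 0.00118). LTI30 was not called there, with 12.61, 11.79 and 12.56 in gtl1 (0.75, adjusted p = 0.398). DI21 was at 5.45, 5.32 and 5.65 in gtl1, inside the df1 range (-0.05, adjusted p = 1). Both comparisons share the df1 arrays, and LEA4-5 was among the genes that the naming rule took for lying above both WT and gtl1.

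Enzymes that attach sugars or glutathione to small molecules also moved, in both directions. The gene families here and below, and the organelle genes, were added after the values were seen. Their shares beside those of all probe sets describe these data and give no independent support. UGT76B1, a glucosyltransferase that acts on salicylic acid and isoleucic acid, was at 10.17, 10.05 and 7.58 in df1 and 6.26, 6.48 and 5.97 in WT. It rose by 3.03 ± 0.71 (adjusted p = 0.0101), an 8.16-fold difference and the largest rise of a probe set with 1 gene and no overlap, and df1 replicate 3 lay well below the other df1 arrays. Without df1 replicate 2 its adjusted p was 0.0501. The tau class glutathione transferase gene GSTU20 was at 5.74, 5.36 and 5.74 in df1 and 3.60, 3.44 and 2.94 in WT, a rise of 2.29 ± 0.27 (adjusted p = 0.000208). UGT73B4 rose by 1.44 ± 0.28 (adjusted p = 0.00351), UGT72E2, which glucosylates lignin precursors, by 0.86 ± 0.13 (adjusted p = 0.00081), UGT73D1 by 0.68 ± 0.15 and the lambda class glutathione transferase gene GSTL3 by 0.87 ± 0.18 (adjusted p = 0.00642 and 0.00515).

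The flavonoid glucosyltransferase gene UGT78D2 went the other way and fell by 0.90 ± 0.18 (adjusted p = 0.00405). GSTU27 was at 6.19, 5.43 and 5.98 in df1 and at 6.61, 6.82 and 7.33 in WT, and fell by 1.05 ± 0.24 (adjusted p = 0.00967). GSTU25 fell by 1.15 ± 0.33 (adjusted p = 0.0287), with 8.71, 8.10 and 7.45 in df1 and 8.67, 9.19 and 9.84 in WT, where the groups overlapped and the call was lost without any of 4 single arrays (adjusted p = 0.126 without WT replicate 3). Of 47 measured UDP-glycosyltransferases 6 were higher (12.8%, against 7.54% over all probe sets) and 1 lower (2.13%, against 10%), and of 12 tau and lambda glutathione transferases 2 were higher and 2 lower (16.7% each). The median change was 0.04 in the first family and 0.01 in the second, so most members had no call. Of 20 beta-glucosidases, which release such sugars, 3 were higher (15%) and 0 lower, among them BGLU16 and BGLU25, each by 1.12 (adjusted p = 0.000649 and 0.000541). In df1 against gtl1, where 3.56% of all probe sets were higher and 3.20% lower, 0 of the 20 were called. There 3 of the 47 UDP-glycosyltransferases were higher and 1 lower, and 2 of the 12 glutathione transferases were higher and 0 lower. Of 23 cytochromes P450 2 were higher (8.70%, near the 7.54% of all probe sets) and 0 lower, CYP78A9 by at least 1.27 (adjusted p = 0.000247) and CYP71B27 by 0.68 ± 0.10 (adjusted p = 0.000928).

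Hormone genes were examined next. GH3.3, an auxin-inducible enzyme that couples auxin to amino acids, was at 9.46, 9.09 and 8.54 in df1 and at 6.81, 7.22 and 6.85 in WT. It rose by 2.07 ± 0.27 (adjusted p = 0.000407), with no overlap, and was 2.64 above gtl1 as well (adjusted p = 0.000149). Of 8 measured genes of the auxin response list 3 were higher (37.5%, against 7.54% over all probe sets) and 0 lower in df1, with a median of 0.32, and 1 of the 3 calls was kept without WT replicate 3. The other members called were GH3.1, by at least 0.92 (adjusted p = 0.0442), and the Aux/IAA gene IAA30, by 0.94 ± 0.27 (adjusted p = 0.032). Both were lost without single arrays, with adjusted p = 0.151 for GH3.1 without df1 replicate 1 and 0.108 for IAA30 without df1 replicate 2. Another GH3 enzyme gene, WES1, overlapped between df1 and WT (0.64 ± 0.50, adjusted p = 0.465), and so did the homeobox gene HAT2 (-0.47 ± 0.27, adjusted p = 0.289). The Aux/IAA gene IAA31, which is outside that list, fell by 0.91 ± 0.20 (adjusted p = 0.00768).

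RR16, a type-A response regulator that dampens cytokinin signalling, was at 4.55, 5.47 and 5.73 in df1 and at 7.88, 6.61 and 7.03 in WT, and fell by 1.92 ± 0.42 (adjusted p = 0.00674). The genotypes did not overlap. In the gtl1 background it was at 5.04, 5.18 and 4.76 in gtl1df1 and at 6.46, 7.57 and 6.77 in gtl1, a change of -1.94 (adjusted p = 0.0192), and it was lower in df1 than in gtl1 as well (-1.69, adjusted p = 0.0289). A related regulator, ARR15, was at the lowest signals in both genotypes, where no change could be read. GID1B, a gibberellin receptor, rose by 1.23 ± 0.19 (adjusted p = 0.000977) and EIN3, the central transcription factor of ethylene signalling, by 0.50 ± 0.07 (adjusted p = 0.000421).

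**Figure D2:**
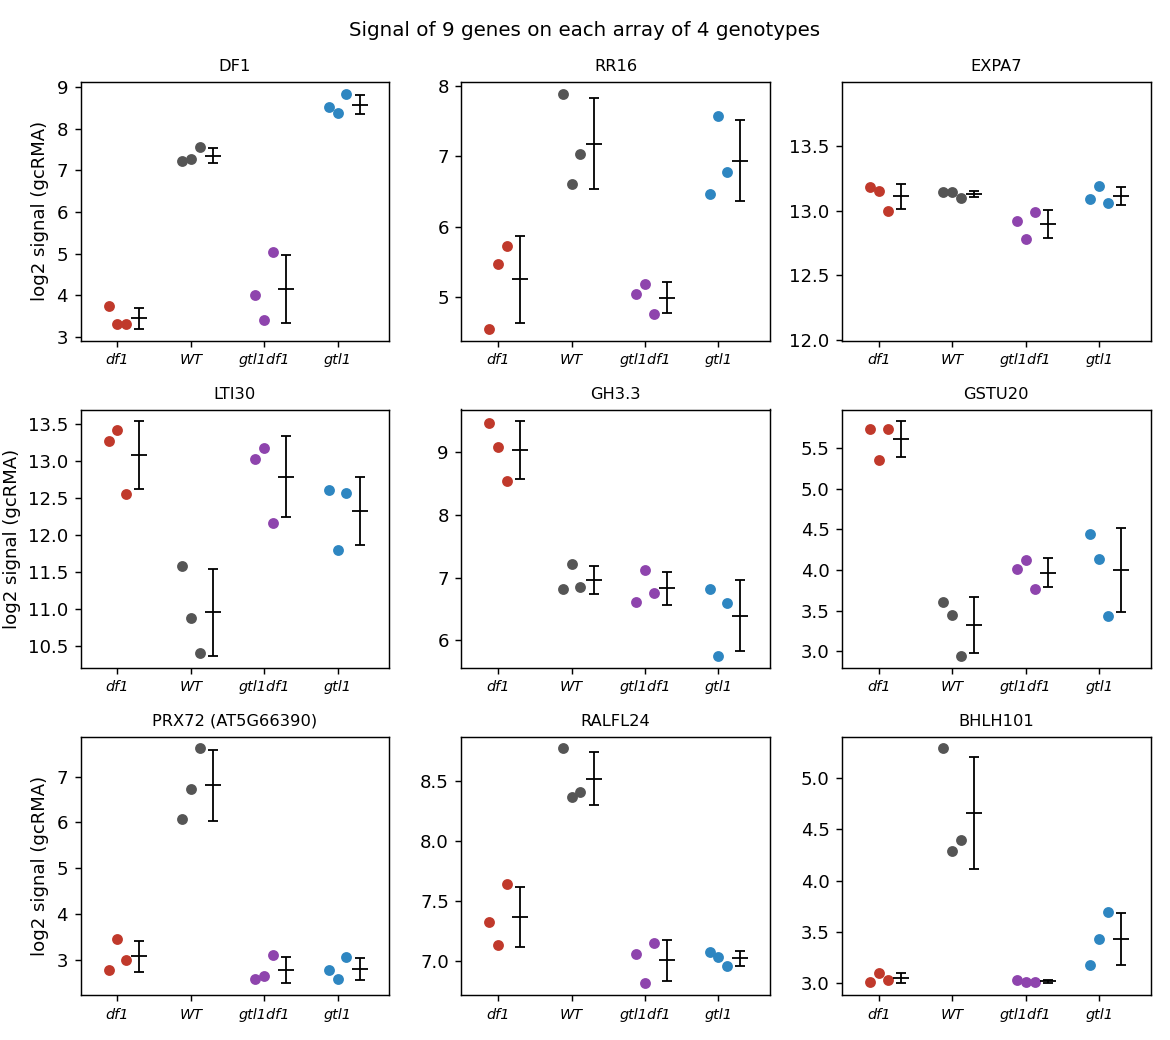
Signal (log2, vertical axis) of 9 genes on each array of df1, WT, gtl1df1 and gtl1 (points), with the mean and SD of the 3 arrays beside them. DF1 and RR16 were lower in df1 than in WT and in gtl1df1 than in gtl1, EXPA7 stayed within 12.78 to 13.19, and PRX72 was high only on the WT arrays among these 4 genotypes.

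Among genes of the cell wall, peroxidases with large falls are given first and then whole families. AT5G66390, recorded as the secreted peroxidase PRX72, was between 2.76 and 3.44 in df1 and at 6.07, 6.74 and 7.62 in WT, and fell by 3.75 ± 0.45 (adjusted p = 0.000225), a 13.4-fold difference. In the mutants' BioB set it was also low, with means of 2.80 in gtl1 and 2.77 in gtl1df1, while DF1ox, in the set of WT, averaged 5.15. Another peroxidase gene, PRXR1, was at 4.77, 4.50 and 5.07 in df1 and 7.51, 7.54 and 9.15 in WT and fell by 3.29 ± 0.44 (adjusted p = 0.000465). The xyloglucan endotransglucosylase/hydrolases, which cut and rejoin wall xyloglucan, had 0 higher and 3 lower (33.3%, against 10% of all probe sets) of 9 measured members. XTH26, which is expressed in root hairs, was at 10.33, 10.64 and 11.07 in df1 and at 12.07, 11.43 and 11.68 in WT and fell by 1.05 ± 0.19 (adjusted p = 0.00228). It was also lower than in gtl1 (-0.76, adjusted p = 0.0288), as the only 1 of the 9 members called in that comparison. XTH33 fell by 1.00 ± 0.25 (adjusted p = 0.0143, and 0.0501 without df1 replicate 3). XTH21 fell by 1.63 ± 0.44 (adjusted p = 0.0216) but lost its call without any single array except WT replicate 1, with an adjusted p of up to 0.0838 without WT replicate 3.

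Expansins loosen the wall without cutting it, and 0 of 17 were higher and 4 lower in df1 (23.5%, against 10% of all probe sets). In df1 against gtl1, where 3.56% of all probe sets were higher and 3.20% lower, 0 of the 17 were called and the median was 0.00. The most abundant of the lower ones was EXPA18, a root hair expansin, at 14.01, 14.04 and 14.14 in df1 and 14.34, 14.21 and 14.29 in WT. The groups were separate but close, and the fall was 0.22 ± 0.05 (adjusted p = 0.0116). The other lower ones lost their calls when single arrays were left out. EXLA1 fell by 1.61 ± 0.45 (adjusted p = 0.0253), EXPA15 by 0.87 ± 0.27 (adjusted p = 0.0436) and EXPB1 by 0.84 ± 0.26 (adjusted p = 0.0408), and their adjusted p was 0.104, 0.0934 and 0.0921 without WT replicate 3. Other wall genes that fell were GUT2, taken by the naming rule, and HCT and SBT4.12, added after their values were seen. The xylan synthesis gene GUT2 fell by 0.96 ± 0.20 (adjusted p = 0.00621), the lignin pathway gene HCT by 0.80 ± 0.14 (adjusted p = 0.002) and the subtilase gene SBT4.12 by 2.63 ± 0.47 (adjusted p = 0.0024). Of 22 trichome birefringence-like proteins, a family of wall polysaccharide acetyltransferases, 3 were lower (13.6%) and 1 higher (4.55%), shares near those of all probe sets (10% and 7.54%). TBL28 fell by 0.96 ± 0.19 (adjusted p = 0.00476) and TBL41 rose by 1.14 ± 0.27 (adjusted p = 0.0112, and 0.0544 without df1 replicate 2).

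Secreted peptides of the RALF family, which act on wall and growth through receptor kinases at the cell surface, had 0 higher and 5 lower (45.5%, against 10% of all probe sets) of 11 measured members, with a median of -0.21. RALFL24 was at 7.33, 7.14 and 7.64 in df1 and at 8.77, 8.37 and 8.41 in WT and fell by 1.15 ± 0.14 (adjusted p = 0.000314). RALFL31 was at 4.31, 4.03 and 4.09 in df1 and at 4.91, 4.91 and 5.46 in WT and fell by 0.95 ± 0.15 (adjusted p = 0.000977). RALFL32 was at 3.32, 3.39 and 3.39 in df1 and at 4.57, 4.86 and 6.23 in WT and fell by 1.86 ± 0.40 (adjusted p = 0.00621). None of these 3 overlapped between df1 and WT, and all 3 were called without each single array in turn. The calls of RALFL22, which fell by 0.21 ± 0.06, and RALFL34, which fell by at least 1.46, were lost without WT replicate 3 (adjusted p = 0.0789 and 0.0877) and without other single arrays. Of the 3, RALFL31 was the one also lower in df1 than in gtl1 (-0.63, adjusted p = 0.0221), while RALFL24 was at 7.08, 7.04 and 6.96 in gtl1, below all df1 arrays (0.34, adjusted p = 0.215). The defensin-like gene LCR68 fell by 2.60 ± 0.40 (adjusted p = 0.000997).

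Of 8 RNA polymerase II, IV and V subunits 0 were higher and 5 lower (62.5%, against 10% of all probe sets), and 2 of these calls were kept without WT replicate 3. Their mean signal was 4.62, 4.58 and 4.60 in df1, 4.68, 4.67 and 4.68 in gtl1 and 4.95, 5.04 and 5.29 in WT. In df1 against gtl1, within 1 BioB set, 0 of the 8 were called and the median was 0.00. Over all probe sets 3.56% were higher and 3.20% lower there. NRPB6A was at 6.80, 6.67 and 6.85 in df1 and at 7.52, 7.41 and 8.11 in WT and fell by 0.91 ± 0.15 (adjusted p = 0.0014). NRPB6B fell by 0.85 ± 0.12 (adjusted p = 0.000534), and both were called without each single array, unlike NRPB7, NRPB9B and NRPB12 (adjusted p of up to 0.0789, 0.1 and 0.103 without WT replicate 2, WT replicate 3 and WT replicate 3). Single genes from the larger falls, chosen after their values were seen, are given with them. PGY1, a protein of the large ribosomal subunit, was at 7.95, 7.52 and 7.77 in df1 and at 9.23, 9.25 and 10.62 in WT and fell by 1.95 ± 0.32 (adjusted p = 0.00152). The tubulin gene TUB5 was at 7.93, 7.95 and 7.78 in df1 and at 9.16, 9.12 and 9.19 in WT, with tight and separate groups, and fell by 1.27 ± 0.18 (adjusted p = 0.000665). It was the only one of 7 tubulins called. The histone H2B gene HTB4 fell by 0.84 ± 0.20 (adjusted p = 0.0103).

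Among enzyme genes with large falls was PMEAMT, a phosphoethanolamine methyltransferase of phosphatidylcholine synthesis, at 5.15, 4.95 and 5.20 in df1 and 6.55, 6.91 and 7.48 in WT, which fell by 1.88 ± 0.23 (adjusted p = 0.000246). OTC, an enzyme of arginine synthesis, fell by 1.88 ± 0.37 (adjusted p = 0.00417), CPI1, an enzyme of sterol synthesis, fell by 1.97 ± 0.37 (adjusted p = 0.00296) and the chaperonin gene Cpn60beta3 fell by 2.34 ± 0.54 (adjusted p = 0.00967). In OTC, CPI1, Cpn60beta3, PGY1 and HTB4, WT replicate 3 had the highest signal of all WT arrays. The same array was the highest over the list of mitotic and replication genes, whose mean signal was 3.67, 3.53 and 3.62 in df1 and 3.70, 3.77 and 4.48 in WT, and of whose 5 measured members 0 were called. In the fit without that array, NRPB7, NRPB9B and NRPB12 were not called, and NRPB6A, NRPB6B, PGY1, TUB5, HTB4, PMEAMT, OTC, CPI1 and Cpn60beta3 were called.

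Of 3 measured genes of the iron uptake list 2 were lower (66.7%, against 10% of all probe sets) and 0 higher. BHLH101, a transcription factor of the iron deficiency response, was at 3.01, 3.10 and 3.03 in df1 and at 5.29, 4.29 and 4.40 in WT and fell by at least 1.61 (adjusted p = 0.000272). Its signals in gtl1, 3.18, 3.43 and 3.69, were also low (df1 minus gtl1 -0.39, adjusted p = 0.344). PYE, another iron deficiency factor, fell by 1.03 ± 0.31 (adjusted p = 0.0372, and 0.114 without df1 replicate 3), and ILR3, its partner, had a change of 0.05 ± 0.08 (adjusted p = 0.878). Of 2 measured endoreduplication genes 1 was lower. SIM, an inhibitor of cyclin-dependent kinases that promotes endoreduplication, fell by 0.74 ± 0.22 (adjusted p = 0.0316), a call that was lost without df1 replicate 2 (adjusted p = 0.127) and without 3 other single arrays.

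RNAs encoded in the organelles were higher in df1 where they were called, with 1 exception. Of 23 mitochondrial probe sets, for 16 named genes, 7 were higher (30.4%, against 7.54% of all probe sets) and 0 lower, with a median of 0.50, and 4 of the calls were made without each single array. The cytochrome oxidase subunit gene cox2 was at 9.10, 9.41 and 9.40 in df1 and at 7.86, 7.17 and 7.20 in WT and rose by 1.89 ± 0.24 (adjusted p = 0.000337). The cytochrome c maturation gene ccb206 was at 4.96, 5.17 and 5.05 in df1 and at 3.37, 3.31 and 3.10 in WT and rose by 1.80 ± 0.19 (adjusted p = 0.000105). The dehydrogenase subunit gene nad2 rose by at least 1.89 (adjusted p = 0.00352). Against gtl1, in the same BioB set, ccb206 was called (0.97, adjusted p = 0.00907) and cox2 was not (0.53, adjusted p = 0.263).

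Of 69 plastid-encoded probe sets 10 were higher (14.5%, against 7.54% of all probe sets) and 1 lower (1.45%), with a median of 0.27. The highest in signal of those named here was accD, a subunit of the plastid fatty acid enzyme acetyl-CoA carboxylase, at 9.49, 10.10 and 9.87 in df1 and at 9.21, 7.64 and 8.13 in WT (1.50 ± 0.45, adjusted p = 0.0367). The cytochrome f gene petA, at 9.08, 9.38 and 9.28 in df1 and at 8.75, 7.90 and 7.43 in WT, rose by 1.22 ± 0.29 (adjusted p = 0.0109) and was the only plastid call made without each single array. Without WT replicate 3, 3 of the higher calls were kept, and accD had an adjusted p of 0.113. The exception was the photosystem gene psaJ, which fell by at least 1.47 (adjusted p = 0.0209, and 0.0688 without WT replicate 3). In gtl1df1 against gtl1 the median was -0.29 over the plastid and -0.23 over the mitochondrial probe sets, with 0 higher calls in either. The 3′ minus 5′ difference of GAPDH was larger in df1 than in WT, gtl1 and gtl1df1, as was the mean of the second control series. Those of actin and ubiquitin in the first series were not larger in df1 than in WT. The part of these differences in the organelle signals was not tested.

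Many of the largest changes belonged to loci without a gene name in the annotation. AT2G01900 was at 5.56, 5.52 and 5.46 in df1 and at 2.54, 2.68 and 2.53 in WT and rose by at least 2.93 (adjusted p = 1.42e-06). It was near the lowest signal in gtl1 too, at 2.32, 2.53 and 2.49, and in gtl1df1, at 2.37 on all 3 arrays. AT2G40250 was at 5.17, 4.63 and 4.52 in df1 and at 2.36, 2.37 and 2.36 in WT and rose by at least 2.41 (adjusted p = 1.42e-06). AT5G27750 was at 6.25, 6.48 and 5.90 in df1 and at 3.45, 3.90 and 3.69 in WT and rose by 2.53 ± 0.22 (adjusted p = 4.99e-05). All 3 were higher in df1 than in gtl1, by at least 3.07, at least 2.43 and 2.88 (adjusted p = 1.16e-06, 1.35e-06 and 1.56e-05). The naming rule took these 3 also for lying above both WT and gtl1, so their difference from gtl1 gives no independent support. They were also called in the fit of only the df1 and WT arrays (adjusted p = 0.00136, 0.0384 and 0.0388). Further rises were those of AT3G02480 by 2.98 ± 0.56, AT1G75960 by 2.91 ± 0.33 and AT4G36010 by 3.02 ± 0.80 (adjusted p = 0.003, 0.000181 and 0.0199), the last with adjusted p = 0.0803 without df1 replicate 2.

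Large falls of loci without a name are shown by 3 of them, in each of which WT replicate 3 was the highest WT array. AT5G62340 was at 3.50, 3.33 and 4.15 in df1 and at 6.74, 6.95 and 9.52 in WT (-4.08 ± 0.79, adjusted p = 0.00363). AT4G29410 was at 4.44, 4.30 and 4.56 in df1 and at 8.01, 7.38 and 9.97 in WT (-4.02 ± 0.52, adjusted p = 0.00036). AT1G27400 was at 5.27, 4.33 and 5.18 in df1 and at 8.37, 7.64 and 10.11 in WT (-3.78 ± 0.51, adjusted p = 0.000475). None of the 3 overlapped between df1 and WT, but the naming rule takes the largest falls only among probe sets without overlap, so this gives no added support. None lost its call without a single array, and AT4G29410 and AT1G27400 were also lower in df1 than in gtl1 (-2.06 and -1.99, adjusted p = 0.0315 and 0.0342). AT4G17280 averaged 3.49 ± 0.54 in df1, 5.54 ± 0.73 in WT and 5.16 ± 0.09 in gtl1 (SD, n = 3 each), with changes of -2.05 from WT and -1.68 from gtl1 (adjusted p = 0.00128 and 0.00946).

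Whether loss of DF1 had the same effect in plants without GTL1 was read from gtl1df1 against gtl1, which shares no array with df1 against WT and lies within 1 BioB set. It gave 1071 calls (4.71%), 515 higher (2.26%) and 556 lower (2.44%). In both comparisons 29 probe sets were higher (0.127% of all), 1.69% of the df1 calls and 5.63% of the gtl1df1 calls in that direction, and 88 were lower (0.387% of all), 3.86% and 15.8%. Opposite calls were more frequent, at 119 higher in df1 against WT and lower in gtl1df1 against gtl1 (6.93% and 21.4%) and 181 the other way (7.94% and 35.1%). Across all 22746 probe sets the changes of both comparisons correlated at -0.25, and across the 4649 called in either at -0.27, as descriptions without a test. The difference between the changes was itself called for 3552 probe sets (15.6%), among them 2574 of the 3995. The genotypes differ in BioB set in the first comparison only, and set and background cannot be told apart in this difference.

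**Figure D3:**
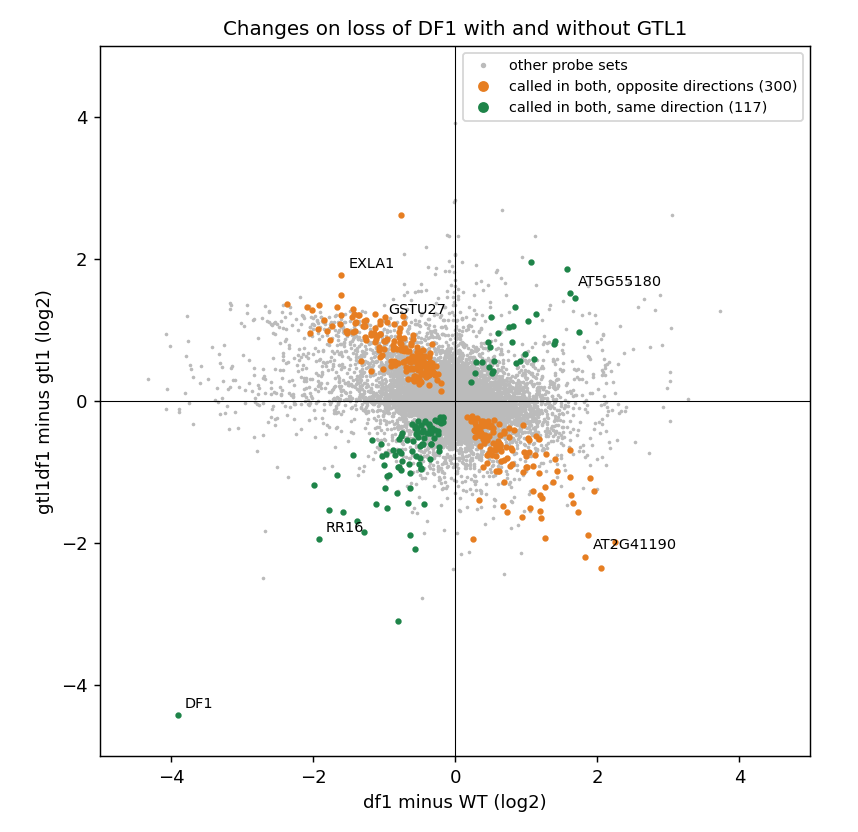
Change on loss of DF1 with GTL1 present (df1 minus WT, horizontal axis, log2) and without it (gtl1df1 minus gtl1, vertical axis, log2) for each probe set, with 2 probe sets outside the range shown. Of those called in both, 117 went the same way (green) and 300 opposite ways (orange).

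Genes that fell with DF1 loss in both backgrounds included DF1 itself and RR16, given above. GUT2 was at 3.93, 4.44 and 3.77 in df1 and at 5.01, 5.12 and 4.89 in WT, and at 2.97, 2.60 and 3.08 in gtl1df1 and 3.68, 4.07 and 4.08 in gtl1. Its changes were -0.96 and -1.06 (adjusted p = 0.00621 and 0.0112), of which the second is only a lower limit of the fall. HYH, a bZIP factor of light signalling and homologue of HY5, was at 7.69, 7.82 and 7.68 in df1 and 8.81, 8.55 and 8.40 in WT (-0.86, adjusted p = 0.00188), and changed by -0.76 in gtl1df1 against gtl1 (adjusted p = 0.0114). SMZ, an AP2 class repressor of flowering, changed by -0.77 and -0.50 (adjusted p = 0.000693 and 0.0235). For HCT the changes were -0.80 and -0.53 (adjusted p = 0.002 and 0.0491) and for EXPA18 -0.22 in each background (adjusted p = 0.0116 and 0.0287). In none of DF1, RR16, GUT2, HYH, SMZ, HCT and EXPA18 did the changes in the backgrounds differ by the test of their difference (adjusted p between 0.32 and 1), which does not show that they were equal.

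Loci without a name that fell in both were AT5G20700, by 0.94 and 1.04 (adjusted p = 0.000301 and 0.000316), AT3G20850, by 1.38 and 1.69 (adjusted p = 0.00576 and 0.0057), and AT4G15740, by 0.99 and 1.23 (adjusted p = 0.0103 and 0.00972). Rises in both were those of AT3G50050 by 1.74 and 0.97 (adjusted p = 5.89e-05 and 0.0039), AT1G75370 by 1.38 and 0.80 (adjusted p = 0.000597 and 0.0354), AT5G04480 by 1.41 and 0.84 (adjusted p = 0.000605 and 0.0299), and AT1G08050 by 1.13 and 1.22 (adjusted p = 0.00341 and 0.00677). AT5G55180 rose by 1.62 and 1.52 (adjusted p = 0.0119 and 0.0433), but its df1 call was lost without df1 replicate 2 (adjusted p = 0.0556).

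The clearest opposite change was that of AT2G41190, at 9.09, 9.46 and 9.51 in df1 and 8.04, 7.20 and 7.32 in WT, and at 5.82, 5.74 and 6.03 in gtl1df1 and 7.99, 7.93 and 8.23 in gtl1. It rose by 1.83 (adjusted p = 0.000102) with GTL1 present and changed by -2.19 without it (adjusted p = 3.41e-05), a difference of 4.02 (adjusted p = 4.68e-06), and its df1 arrays were also above those of gtl1 (1.30, adjusted p = 0.0018). AT5G49900 rose by 1.72 and changed by -1.56 (adjusted p = 0.00183 and 0.0101). GSTU27 fell by 1.05 in df1 against WT and was at 7.63, 7.88 and 7.46 in gtl1df1 against 6.45, 6.56 and 6.54 in gtl1 (1.13, adjusted p = 0.0197). EXLA1 fell by 1.61 and was at 5.74, 5.64 and 5.08 in gtl1df1 against 3.17, 3.62 and 4.33 in gtl1 (1.77, adjusted p = 0.0412). The exocyst gene EXO84B, whose product tethers secretory vesicles to the plasma membrane, rose by 0.24 ± 0.04 in df1 (adjusted p = 0.00276) and changed by -0.21 in gtl1df1 (adjusted p = 0.0156).

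**Figure D4:**
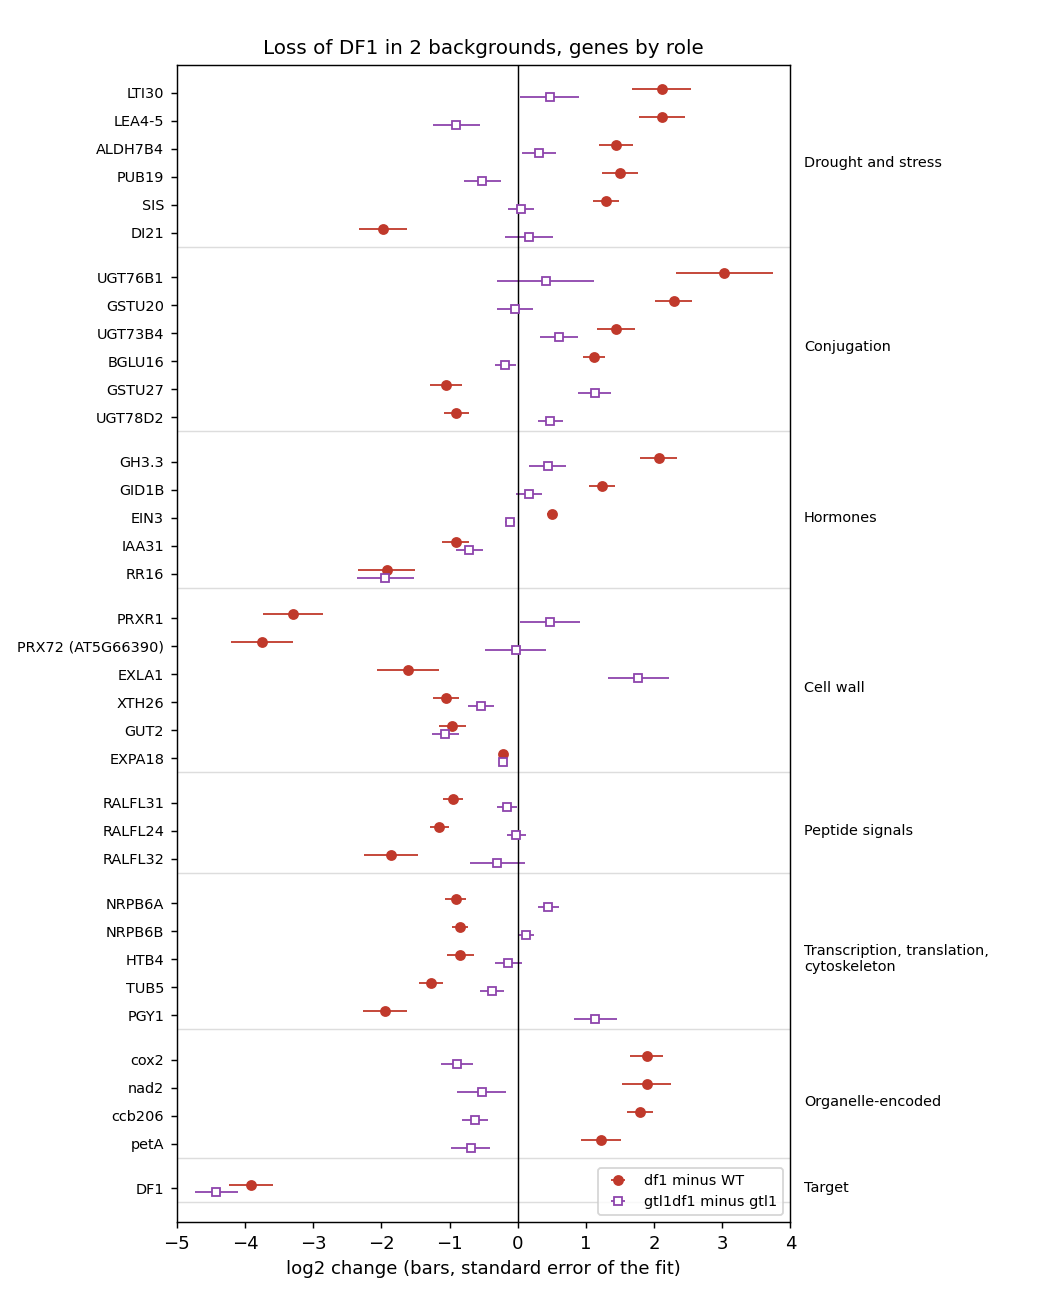
Change of named genes (horizontal axis, log2, bars show the SE of the fit) in df1 minus WT (red circles) and gtl1df1 minus gtl1 (open purple squares), grouped by role. DF1 lay at -3.91 and -4.42, and most other genes with a large change in df1 minus WT lay near 0 or across it in gtl1df1 minus gtl1.

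Against gtl1, the other single mutant, df1 had 1538 calls (6.76%), 809 higher (3.56%) and 729 lower (3.20%). These arrays share a BioB set but also the df1 arrays with the comparison above. Of the 22746 probe sets, 506 were higher and 304 lower in df1 than in both WT and gtl1 by both tests and with no array overlapping. How often df1 arrays lay beyond all WT and gtl1 arrays in probe sets without a call was not counted.

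Gain of DF1 in DF1ox offered the reverse change, with WT as the shared reference and within 1 BioB set. The other added controls still differed, without overlap. BioC averaged 7.51 in DF1ox and 6.51 in WT, BioD 10.33 and 9.33, and Cre 13.12 and 12.20. The part of this difference in the values below was not tested. The genes below were chosen after their values were seen. HYH averaged 7.73 ± 0.08 in df1, 9.38 ± 0.13 in DF1ox and 8.59 ± 0.21 in WT (SD, n = 3 each), so that it was 0.86 lower in df1 and 0.79 higher in DF1ox than in WT (DF1ox adjusted p = 0.00578). XTH33 was 1.00 lower in df1 and 1.39 higher in DF1ox (DF1ox adjusted p = 0.00458), and AT5G27750 was 2.53 higher in df1 and at least 1.04 lower in DF1ox (DF1ox adjusted p = 0.0114). The beta-glucosidase gene BGLU15 was 0.32 higher in df1 (adjusted p = 0.0258, and 0.11 without WT replicate 3) and 0.82 lower in DF1ox (adjusted p = 0.000153). GT2 was at 7.69, 7.42 and 7.10 in DF1ox, below every WT array (-1.50, adjusted p = 0.000657).

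Other genes differed from WT the same way in both lines. LEA4-5 was 2.12 higher in df1 and 3.02 higher in DF1ox (DF1ox adjusted p = 0.000209), GH3.3 was 2.07 and 1.54 higher (DF1ox adjusted p = 0.00416), and UGT76B1 was 3.03 and 2.73 higher (DF1ox adjusted p = 0.0324). RR16 was 1.92 lower in df1 and 2.99 lower in DF1ox (DF1ox adjusted p = 0.000924), and BHLH101 was at least 1.61 and at least 1.52 lower (DF1ox adjusted p = 0.000587). DF1ox and df1 lie on opposite sides of WT in DF1 itself, at means of 14.21 in DF1ox and 3.45 in df1 against 7.35 in WT. Since df1 and DF1ox are each set against the same 3 WT arrays, such a shared direction is not independent evidence of the change.

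Several groups gave little or nothing. Of 2 measured epidermal fate factors 0 were called. The 1 ground tissue, 2 stele and 1 root cap and niche genes measured also had 0 calls, with medians between -0.08 and 0.06. Of 6 photosynthesis genes 1 was higher, and the list averaged 2.43 to 2.52 in df1 and 2.34 to 2.38 in WT, at the bottom of the scale. Of 14 SWEET sugar transporters 0 were called. The short lists of housekeeping and root hair growth genes did hold calls. Of 4 measured housekeeping genes 1 was lower and 0 higher, with a median of -0.31. Of 2 measured root hair growth genes 1 was higher and 1 lower. At an unadjusted p under 0.05 6345 of the 22746 probe sets (27.9%) differed between df1 and WT by limma. GTL1, RSL4 and most members of the root hair lists were not analysed here, since the annotation used names no probe set for them.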

How the data were processed

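RNA of sorted root hair cells was measured on Affymetrix ATH1 arrays. The authors normalized the arrays by gcRMA and analysed them with limma through affylmGUI, and the deposited values are log2 signals, used here as deposited. Per the labels, 6 arrays were labelled by a 2-cycle protocol, without a statement of which, and gcRMA settings were not stated in the sources used. All 18 columns matched a sample by title, with 0 columns of no sample.

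Tests left out 64 Affymetrix control probe sets and took in all of the other 22746. The platform annotation gave 13513 of them 1 gene, 503 several and 8730 none, and 13436 of the 13513 were found in the TAIR10.1 gene table, which supplied symbols. A gene symbol stood beside 1629 probe sets. A gene without such a probe set was not analysed here. Of 708 genes on 27 lists, 71 had a probe set, in 24 lists. Each gene is represented by the probe set named with it, and the one with the larger change where there were several.

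The limma model (version 3.58.1, under R 4.3.3) held a mean for each of the 6 genotypes and used all 18 arrays, with eBayes and no trend. Tests were two-sided, p-values were adjusted by Benjamini-Hochberg over the 22746 probe sets, and calls were made at an adjusted p under 0.05. The fit was checked on simulated data with the same spread in every genotype and no difference between BioB sets. Such a check cannot show how a noisier genotype or the BioB set affects the calls. The contrasts were df1 against WT, gtl1df1 against gtl1, their difference, df1 against gtl1 and each line against WT. The number of arrays limits the precision. Gene lists and families are described by counts and medians without a test.

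Members, lists and the naming rule were chosen with earlier results of these data known. The rule takes DF1, GT2 and EXPA7, the 15 largest rises and falls with 1 gene and no overlap, the 10 largest changes each way called in both losses of DF1, the 8 each way apart from WT and gtl1, the 5 largest differences each way, and up to 6 members of each list. After the values were seen, the 25 largest rises and falls with a gene name and no overlap were added. So were gene families by symbol, organelle genes and the genes compared with DF1ox, and not all genes of the rule are described. For the largest rises and falls, no overlap between df1 and WT was a condition of being named. Alternatives were the fit of only the arrays compared, quantile normalization, an intensity trend, filters on dim probe sets, the replicate number as a block, array weights, each array left out and other call rules. Python 3.11.15 with pandas 2.3.3 and matplotlib 3.10.9 was used for tables and plots.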

Additional observations from a re-analysis of the deposited data

Results flagged for a closer look

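The change on loss of DF1 differed between plants with GTL1 (df1 minus WT) and plants without it (gtl1df1 minus gtl1) for 3552 probe sets, by the limma test of the difference between the changes. Of the genes named here, 65 were among them, and their differences are (df1 minus WT) minus (gtl1df1 minus gtl1), so that a positive value is a larger rise or smaller fall in df1 against WT. The BioB set differs between df1 and WT and not between gtl1df1 and gtl1, and set and background cannot be told apart in any of these values.

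The difference was widest in the positive direction, in log2 units, in AT2G41190 4.02, AT3G46700 3.76, AT5G49900 3.29, AT5G27750 3.12, LEA4-5 3.02, AT2G01900 3.01, AT3G02480 2.80, cox2 2.79 and cemA 2.69. It was also positive in AT2G40250 2.50, AT5G61590 2.47, nad2 2.42, ccb206 2.42, GSTU20 2.32, accD 2.25, AT1G75960 2.11, PUB19 2.02 and petA 1.91. Further positive differences were TBL41 1.85, ycf4 1.66, GH3.3 1.63, psbL 1.53, COR47 1.52, CYP78A9 1.39, BGLU16 1.31, SIS 1.24 and ALDH7B4 1.13. Smaller positive differences were GID1B 1.06, UGT72E2 0.94, BGLU25 0.87, AT3G50050 0.77, CYP71B27 0.67, EIN3 0.61, UGT80B1 0.50, BGLU15 0.46 and EXO84B 0.45. AT2G01900 and AT2G40250 lay near the lowest signal in WT, gtl1 and gtl1df1, so that only their rise in df1 could be read.

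The difference was widest in the negative direction in AT5G62340 -5.02, AT1G27400 -4.98, AT4G29410 -4.80, AT5G16130 -4.56, AT4G12600 -3.92, PRXR1 -3.76, AT5G66390 -3.72 and EXLA1 -3.38. It was also negative in AT4G11210 -3.13, PGY1 -3.09, Cpn60beta3 -3.09, CPI1 -2.54, OTC -2.38, LCR68 -2.38, AT4G17280 -2.36 and SBT4.12 -2.34. Further negative differences were GSTU27 -2.19, DI21 -2.15, GSTU25 -1.98, PMEAMT -1.64, UGT78D2 -1.38, NRPB6A -1.36, BHLH101 -1.20 and RALFL24 -1.13. Smaller negative differences were NRPB7 -1.11, TBL28 -0.98, NRPB6B -0.97, TUB5 -0.89 and RALFL31 -0.79. Where a gene already lay near the lowest signal in gtl1, as AT5G66390 did, little or no fall could be read in gtl1df1 against gtl1.

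In the control probe sets, which entered no comparison, the added BioB transcript was 5.43 higher in df1 than in WT. BioC averaged 9.33 ± 0.10 in df1 and 6.51 ± 0.20 in WT, BioD 11.68 ± 0.10 in df1 and 9.33 ± 0.30 in WT, and Cre 14.05 ± 0.12 in df1 and 12.20 ± 0.35 in WT (SD, n = 3 each). The test for a single array far from its group was not applied, since groups held 3 arrays. Among the array quality weights of limma, WT replicate 3 had the lowest of all 18 arrays (0.355).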

How the results depend on the processing

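With only the arrays of the genotypes compared in the fit, the calls were 333 in df1 against WT, 358 in gtl1df1 against gtl1 and 115 in df1 against gtl1, with 5 probe sets called the same way and 10 opposite ways in the first pair of comparisons. The fit then has fewer arrays to estimate the spread. The study's call rule was a p under 0.05 with over 2-fold change, without a statement of whether p was adjusted. Read with an unadjusted p, it gave 1382 calls in df1 against WT and 459 in gtl1df1 against gtl1. Read with an adjusted p, it gave 1264 in df1 against WT. In gtl1df1 against gtl1, 1615 were called when probe sets at or below the median of the mean signals were left out, 1642 among probe sets with at least 3 arrays over 1 unit above the lowest value, and 2367 with array quality weights. The probe sets called the same way then numbered 180, 178 and 162, and those called opposite ways 598, 593 and 644. The filters test fewer probe sets, and the cause of the change with weights was not tested.

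Leaving out 1 array at a time gave 2636 to 4226 calls in df1 against WT (lowest without df1 replicate 2), 573 to 1048 in gtl1df1 against gtl1 (lowest without gtl1 replicate 2), 777 to 1585 in df1 against gtl1 (lowest without gtl1 replicate 2) and 2796 to 4210 for the difference of changes. The same-way count was 66 to 106 and the opposite-way count 116 to 353, lowest without gtl1df1 replicate 2 and gtl1df1 replicate 1, and the opposite count was the higher one under each setting run. Quantile normalization gave 4074, 1090, 1518 and 3647 calls.

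Numbers of the replicates did not pair the arrays within the comparisons made. The deviations of same-numbered arrays correlated at -0.375, -0.02 and -0.007 in df1 with WT and at 0.068, -0.147 and -0.045 in gtl1df1 with gtl1. They correlated at 0.101, 0.208 and 0.279 in gtl1df1 with df1, which are not compared directly but both enter the difference of changes, and at 0.033, -0.18 and 0.019 in df1 with gtl1. With the replicate number as a block the calls were 3780, 960, 1449 and 3349, with 106 same-way and 259 opposite-way probe sets.

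Of 118 genes named, 106 were called in df1 against WT. None changed direction under the alternatives, where a sign was counted only if the change was called in either fit. The filters on dim probe sets did not test all of these genes. The call was lost for 88 with only the arrays compared, 17 with array weights, 5 after quantile normalization and 3 with the replicate block. With 1 array left out it was lost for 7 (WT replicate 1) to 27 (df1 replicate 2), and for 25 without WT replicate 3.

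The limits of these data are 3 arrays per genotype, 1 allele, and a reference in another BioB set. Signals within 1 unit of 2.22 give only limits, and 27.9% of all values lay within 0.01 of that value.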
